A study of Mus musculus with 6 samples.

Results

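The genes described here are transcriptional targets of p53 and genes of the DNA damage response. They were taken from a fixed list of 38 mouse gene symbols, of which 35 had a row among the 18001 genes of the expression table. Expression of Pmaip1, Perp and Ddit4l, the remaining listed symbols, was not analysed here. The cells were NIH/3T3, an immortalized mouse fibroblast line that has lost Cdkn2a. In the siALDOA group, transfection was with pooled siRNAs against Aldoa, the gene of the glycolytic enzyme aldolase A. In the siCTR group, the pool was of non-targeting siRNAs, and both groups were harvested at 48 h. Each group held 3 replicates of sequenced poly(A) RNA. Both groups were the same cell line, and the knockdown was transient and incomplete.

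p53 is a transcription factor that is held at a low level by the ubiquitin ligase Mdm2 and accumulates as a protein when DNA is damaged or ribosome assembly fails. In the latter case, free ribosomal proteins such as Rpl5 and Rpl11 bind Mdm2. Stabilized p53 then activates genes of cell cycle arrest, cell death and repair as well as Mdm2 itself, and p19Arf, a product of Cdkn2a, is another inhibitor of Mdm2. The comparison asked whether mRNA levels of p53 targets differed after Aldoa silencing, a treatment that the study examined for its relation to ribosomal biogenesis. p53 protein was not measured in these libraries.

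The libraries held 3692341 to 3771129 reads, and 3 reads in a library corresponded to 0.79 to 0.82 CPM (counts relative to the scaled library size). Aldoa itself was at 522, 536 and 545 CPM in siCTR and at 62.9, 69.2 and 72.0 CPM in siALDOA, or 12.7% of the control mean. Replicates 1 and 2 of a group were close to each other (chi-square of the reads over its degrees of freedom, 1.11 to 1.12), while pairs with replicate 3 reached 2.07 to 3.24. The study describes all 3 as biological replicates. Cdkn2a had 6 reads in siCTR replicate 2 and 0 reads in each of the 5 other libraries. Of the fibroblast markers, 10 of 11 were in the table, with a summed level of 15067 to 15621 CPM in siCTR and 12613 to 13313 CPM in siALDOA. They did not move together. In the fit described below, 4 rose (40%, against 10.4% of all genes) and 5 fell (50%, against 10.0%). Those that rose were Pdgfrb, Pdgfra, Fn1 and Thy1, at 118% to 225% of the control mean. Those that fell were Col1a1, Col1a2, Vim, S100a4 and Sparc, at 73.5% to 91.8%. The 6 leukocyte markers in the table summed to 18.3 to 25.2 CPM in siCTR and 25.9 to 28.5 CPM in siALDOA, most of it from Cd14. The 5 epithelial and endothelial markers in the table summed to 11.2 to 14.5 CPM and 3.93 to 6.21 CPM. The part of these marker differences in the results below was not tested.

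Aldoa silencing was accompanied by a higher level of 9 of the 35 genes and a lower level of 4. The share that fell (11.4%) was near that of all genes (10.0%). Sesn1, Ccng2, Eda2r, Trp53inp1, Btg2, Polk, Epha2, Cdkn1a and Mdm2 rose, while Gadd45g, Rps27l, Plk2 and Trp53 itself fell. Other well known targets, among them Bax, Bbc3, Ccng1, Zmat3, Phlda3, Aen and Fas, did not pass the test. In a limma fit over all genes on log2(CPM + 1), with a two-sided test and a Benjamini-Hochberg adjusted p-value under 0.05, 9 of the 35 genes were higher in siALDOA (25.7%, against 10.4% of all 18001 genes). In the same fit 4 were lower (11.4%, against 10.0% of all genes), and 22 were not past the threshold. Without the mean-variance trend in the fit, 4 were higher (against 4.58% of all genes in that fit) and 1 was lower (against 3.42%). With the trend, either direction together gave 37.1% of the p53 genes and 20.4% of all genes. With a filter on low CPM (mean above the lower quartile), 9 of 34 p53 genes were higher, against 1978 of 13500 genes tested. In that filtered fit 4 were lower, against 1948 of the 13500 genes. All siALDOA libraries lay above all siCTR libraries for 17 of the 35 genes (48.6%, against 16.7% of all genes), and below them for 7 (20%, against 17.1%). The median log2 fold change was 0.06 over the 35 genes and -0.0023 over all genes. In bulk RNA a change in the number of responding cells and a change in the RNA per cell cannot be told apart.

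**Figure D1:**
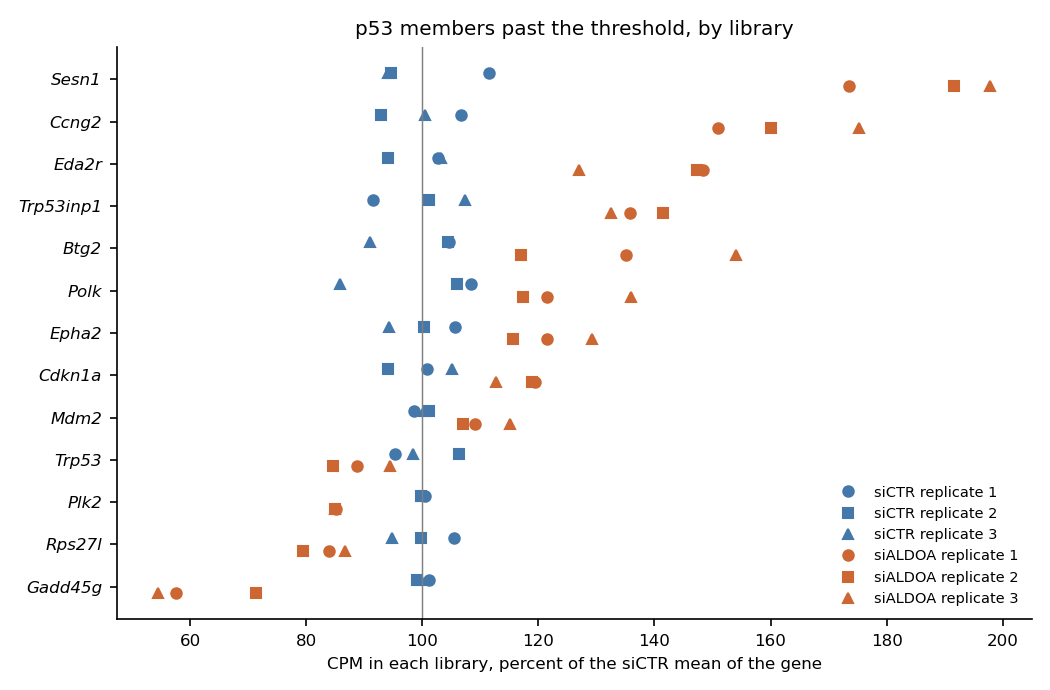
CPM of the 13 p53 genes past the threshold in each of the 6 libraries, as a percent of the siCTR mean of the gene (x axis), with circles, squares and triangles for replicates 1, 2 and 3. The groups do not overlap for any of the 13 genes, with Sesn1 at the top (mean 188% of siCTR) and Gadd45g at the bottom (61.1%). These genes were chosen by the test on the same libraries, so the lack of overlap is no separate support. Over all genes, siALDOA lies above siCTR without overlap in 16.7% and below it in 17.1%.

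The genes at the centre of the p53 circuit moved by little. Trp53 encodes p53 and lies on chromosome 11 of GRCm38 from 69580359 to 69591873. It was at 148, 165 and 153 CPM in siCTR replicates 1, 2 and 3 and at 138, 131 and 147 CPM in siALDOA. The highest siALDOA library was just under the lowest siCTR library, and the mean fell from 155 ± 8.80 to 138 ± 7.74 CPM (SD, n = 3). On the log2(CPM + 1) scale the log2 fold change was -0.16 (standard error, SE, 0.057, adjusted p = 0.044 in limma). Reads of Trp53 are uncertain because Trp53-ps, a copy that is 94.96% identical over 1170 bases, had its own row at 6.68 to 13.0 CPM.

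Mdm2, the ubiquitin ligase of p53 and one of its targets, lies on chromosome 10 from 117688875 to 117710758. It was at 156, 160 and 158 CPM in siCTR and at 172, 169 and 182 CPM in siALDOA. All siALDOA libraries were above all siCTR libraries, by a log2 fold change of 0.14 (SE 0.050, adjusted p = 0.047 in limma). Both calls were near the threshold. That of Mdm2 was lost whichever single library was left out, and that of Trp53 with each of them except siALDOA replicate 3. Across all alternatives the adjusted p of limma, edgeR and DESeq2 ranged from 0.027 to 0.46 for Trp53 and from 0.024 to 0.25 for Mdm2. Mdm4, which encodes a partner of Mdm2 that masks the activation domain of p53, was at 109 to 111 CPM in siCTR and 114 to 121 CPM in siALDOA. Its groups did not overlap, but its log2 fold change of 0.09 (95% interval -0.022 to 0.21) had a limma adjusted p of 0.28.

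Cdkn1a encodes p21, the inhibitor of cyclin-dependent kinases through which p53 arrests the cell cycle. It lies on chromosome 17 from 29090976 to 29100727. Its level was 184, 171 and 191 CPM in siCTR and 217, 216 and 205 CPM in siALDOA. The groups did not overlap, and the mean rose from 182 ± 10.1 to 213 ± 6.85 CPM (SD, n = 3), or 117% of the control. Its log2 fold change was 0.23 (SE 0.050, adjusted p = 0.0019 in limma). This call was kept with each single library left out, and it was lost without a mean-variance trend and without both libraries of replicate 1 or of replicate 2 (adjusted p up to 0.12).

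Promoter sequence was available from RefSeq (GRCm38.p6, 250 bases before to 50 bases after each annotated start) for 28 of the 35 genes and for Ddit4l. Ptp4a3, Tnfrsf10b, Zmat3, Trp53inp1, Xpc, Ddb2 and Rrm2b had no entry. The 10-base p53 element, which reads the same on both strands and binds a dimer of p53, was searched by its consensus without mismatch. It was found in 13 of these 29 genes (44.8%), against 9.55% of the 27025 genes with a promoter. Among the 8 higher genes with a promoter 4 held it, among the 4 lower genes 2 did, and among the 16 genes not past the threshold 6 did. These shares rest on few genes and were not compared by a test. A pair of elements at most 13 bases apart, the arrangement that binds the p53 tetramer, was found in Cdkn1a only, and in 0.0740% of all genes. The stretches below show these elements in 3 genes that rose (Cdkn1a, Mdm2, Sesn1), in 2 that did not pass the test (Ccng1, Bax) and in Trp53, which fell. None of them overlaps an annotated exon. Capitals mark the element, and each is written 5′ to 3′ on the strand of the gene. Distances are from an annotated transcript start. For Sesn1 this start is at 41887439, inside the gene and not at its first base. Such a match is a description of the letters and not a measured binding site.
Cdkn1a, chr17:29090881-29090962, plus strand, elements at -73 and -51 from the start: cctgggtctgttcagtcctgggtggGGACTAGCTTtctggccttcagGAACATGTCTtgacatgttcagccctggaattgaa
Mdm2, chr10:117710910-117710969, minus strand, element at -186: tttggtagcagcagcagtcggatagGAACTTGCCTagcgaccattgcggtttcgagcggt
Sesn1, chr10:41887241-41887300, plus strand, element at -173: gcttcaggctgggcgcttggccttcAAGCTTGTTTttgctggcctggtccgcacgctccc
Ccng1, chr11:40755437-40755496, minus strand, element at -185: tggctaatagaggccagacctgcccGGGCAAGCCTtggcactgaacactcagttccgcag
Bax, chr7:45467065-45467124, minus strand, element at -201: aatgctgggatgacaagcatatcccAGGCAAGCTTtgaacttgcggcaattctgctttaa
Trp53, chr11:69580259-69580318, plus strand, element at -75: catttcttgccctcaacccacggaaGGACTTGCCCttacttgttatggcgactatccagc

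Of the 11 genes of cell cycle arrest, 3 rose (Cdkn1a, Ccng2 and Btg2; 27.3%, against 10.4% of all genes), 2 fell (Gadd45g and Plk2; 18.2%, against 10.0%) and 6 did not pass the test. Ccng2 encodes cyclin G2, an atypical cyclin linked to growth arrest that is known also as a target of FOXO transcription factors. It was at 10.7, 9.30 and 10.1 CPM in siCTR and at 15.1, 16.0 and 17.5 CPM in siALDOA, with a log2 fold change of 0.65 (SE 0.16, adjusted p = 0.0043 in limma). Its close relative Ccng1, a direct p53 target, was at 962, 945 and 926 CPM in siCTR and at 1008, 1011 and 919 CPM in siALDOA, so that replicate 3 was the lowest library in each group. The log2 fold change of Ccng1 was 0.05 (limma adjusted p = 0.38), with a 95% interval of -0.024 to 0.13. Ccng2 was thus at 162% of its control mean, while no difference of Ccng1 was detectable, and the difference between these genes was not tested.

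Btg2, an antiproliferative regulator of mRNA decay, was at 16.7, 16.7 and 14.6 CPM in siCTR and at 21.6, 18.7 and 24.6 CPM in siALDOA (log2 fold change 0.41, SE 0.14, adjusted p = 0.037 in limma). Each siALDOA library was above all siCTR libraries. The call was lost with each single library left out except siALDOA replicate 2, with an adjusted p of up to 0.31 across the alternatives.

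Of the 3 Gadd45 genes, which encode small stress proteins that activate p38 and JNK signalling, 1 fell (against 10.0% of all genes) and 2 did not pass the test. Gadd45g was at 41.4, 40.5 and 40.7 CPM in siCTR and at 23.5, 29.1 and 22.3 CPM in siALDOA. It fell by 0.70 on the log2 scale (SE 0.11, adjusted p = 3.4e-05 in limma), to 61.1% of the control mean. Gadd45a, the member best known as a p53 target, was at 19.2, 15.05 and 18.8 CPM in siCTR and 27.0, 20.6 and 20.4 CPM in siALDOA, without overlap. Its log2 fold change of 0.34 had a limma adjusted p of 0.099, and its exons overlap those of an antisense gene, E230016M11Rik. Gadd45b had a log2 fold change of -0.17 (limma adjusted p = 0.11) and passed the threshold only without siALDOA replicate 3 (-0.27, adjusted p = 0.017). The differences between these genes were not tested.

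Plk2, a polo-like kinase and p53 target, had close replicates. It was at 568, 565 and 565 CPM in siCTR and at 482, 481 and 480 CPM in siALDOA, or 85.0% of the control, with a log2 fold change of -0.23 (SE 0.034, adjusted p = 1.8e-05 in limma). Plk3, a related kinase, was at 15.3 to 16.1 CPM and 17.0 to 23.0 CPM without overlap, but with a limma adjusted p of 0.20. Ckap2, a spindle protein, had a log2 fold change of 0.02 (95% interval -0.083 to 0.12). The phosphatase gene Ptp4a3 had 14 to 35 reads per library, and its interval of -0.55 to 0.49 leaves its direction undetermined at this depth.

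**Figure D2:**
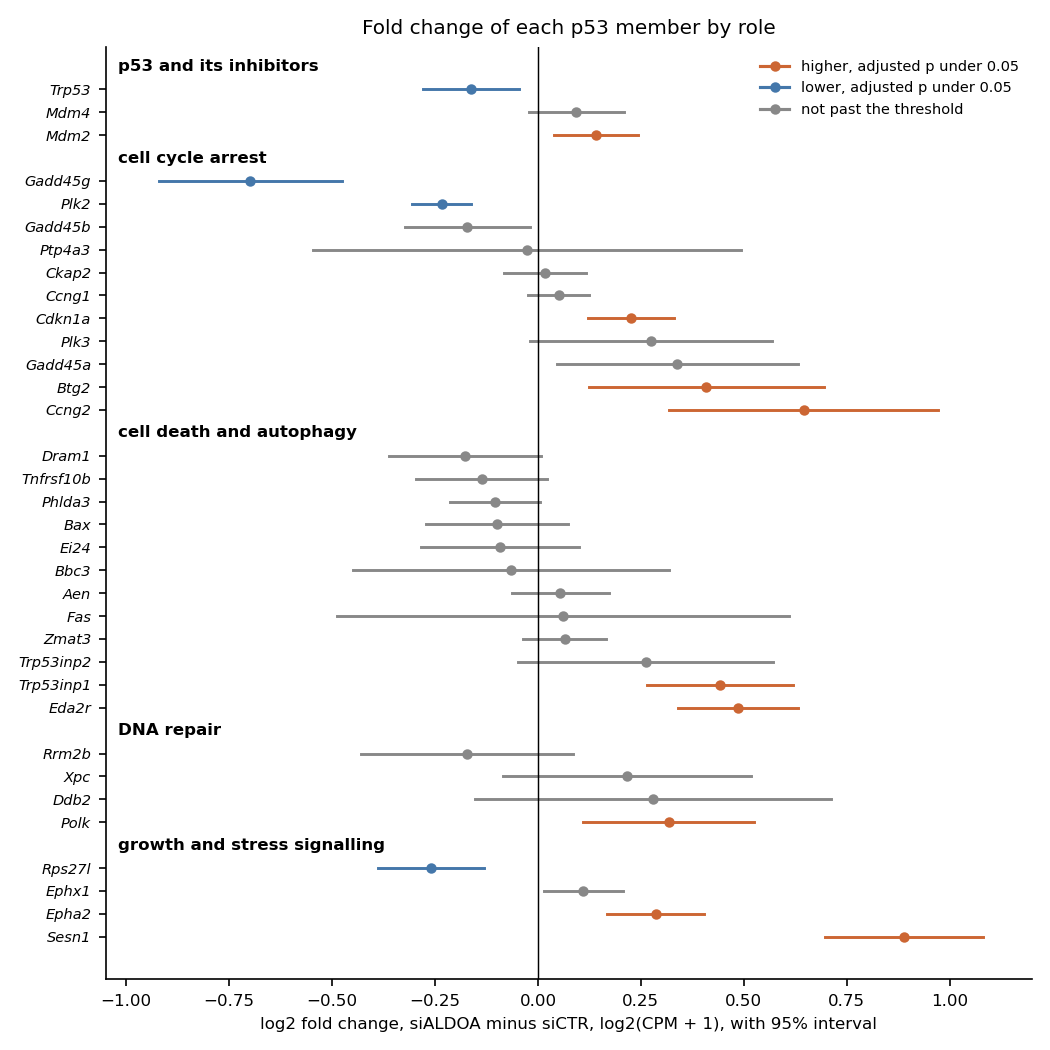
Log2 fold change (siALDOA minus siCTR, x axis, log2(CPM + 1) scale) of 34 p53 genes grouped by role, with 95% intervals from limma and 3 libraries per group; Sulf2, with 1 to 2 reads per library, is not drawn. Genes past the threshold appear on both sides of 0, from Gadd45g at -0.70 to Sesn1 at 0.89.

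Of the 12 genes of cell death and autophagy in the table, 2 rose (16.7%, against 10.4% of all genes), 0 fell (against 10.0%) and 10 did not pass the test in limma. In limma 0 were lower at an unadjusted p under 0.05 (against 15.1% of all genes), as were 0 in edgeR (10.4%) and 0 in DESeq2 (6.21%). The 2 that rose were Eda2r and Trp53inp1. Eda2r, a receptor of the tumour necrosis factor family that binds ectodysplasin A2, was at 73.4, 67.3 and 73.8 CPM in siCTR and at 106, 105 and 90.9 CPM in siALDOA (log2 fold change 0.49, SE 0.070, adjusted p = 1.6e-05 in limma). Trp53inp1, a p53-induced nuclear protein that also acts in autophagy, was at 35.6, 39.4 and 41.8 CPM in siCTR and at 52.9, 55.1 and 51.6 CPM in siALDOA (log2 fold change 0.44, SE 0.086, adjusted p = 5.0e-04 in limma). In both genes the lowest siALDOA library was well above the highest siCTR library.

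Bax and Bbc3, which act at the mitochondrion in cell death, did not pass the test. Bax, the pore-forming protein of the outer mitochondrial membrane, was at 92.6, 80.7 and 87.6 CPM in siCTR and at 90.1, 68.4 and 85.9 CPM in siALDOA. Replicate 2 was lowest in both groups, and the groups overlapped. The log2 fold change of Bax was -0.10 (95% interval -0.27 to 0.072, limma adjusted p = 0.46), and without siALDOA replicate 2 it was 0.02. Bbc3, which encodes the BH3-only protein Puma, was at 8.21 to 10.6 CPM in siCTR and 8.12 to 9.89 CPM in siALDOA, from 30 to 40 reads per library. A change of Bbc3 within its 95% interval of -0.45 to 0.32 was not detectable at this depth.

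Zmat3, Aen and Phlda3, also direct p53 targets, were measured more precisely. Zmat3, an RNA-binding zinc finger protein, was at 154 to 161 CPM and 163 to 169 CPM, with a log2 fold change of 0.06 (95% interval -0.037 to 0.17). Aen, an apoptosis-enhancing nuclease, had a log2 fold change of 0.05 (95% interval -0.063 to 0.17). Phlda3, which competes with Akt for membrane lipids, was at 152 to 154 CPM in siCTR and 137 to 151 CPM in siALDOA, with a log2 fold change of -0.10 (95% interval -0.21 to 0.0038). For Zmat3, Aen and Phlda3 the upper bounds of the intervals were thus under the point estimate of Cdkn1a. The 95% interval of Cdkn1a itself, 0.12 to 0.33, overlapped those of Zmat3 and Aen and lay above that of Phlda3. The difference between the genes was not tested.

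The death receptor genes differed in depth. Fas had 13 to 32 reads per library and an interval of -0.49 to 0.61. Tnfrsf10b, the mouse TRAIL receptor, was at 55.6 to 57.7 CPM in siCTR and 49.2 to 54.5 CPM in siALDOA (log2 fold change -0.14, limma adjusted p = 0.24). Among the autophagy genes, Dram1 had a log2 fold change of -0.18 (limma adjusted p = 0.18), Ei24 of -0.09 (limma adjusted p = 0.55) and Trp53inp2 of 0.26 (limma adjusted p = 0.25). Exonic bases of Bax overlap those of Gm45808 on the same strand, and those of Ei24 overlap Gm26787 on the other strand. Whether the counting used strand, which bears on Ei24, is not given in the sources used here. Reads of Mdm4, Ckap2 and Aen are uncertain too, since Mdm4-ps, Gm7988 and Gm15298 are at least 90% identical to them over 200 bases or more. By the same criterion Tnfrsf10b shared a stretch with 3 other genes in the table and Rrm2b with 15.

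**Figure D3:**
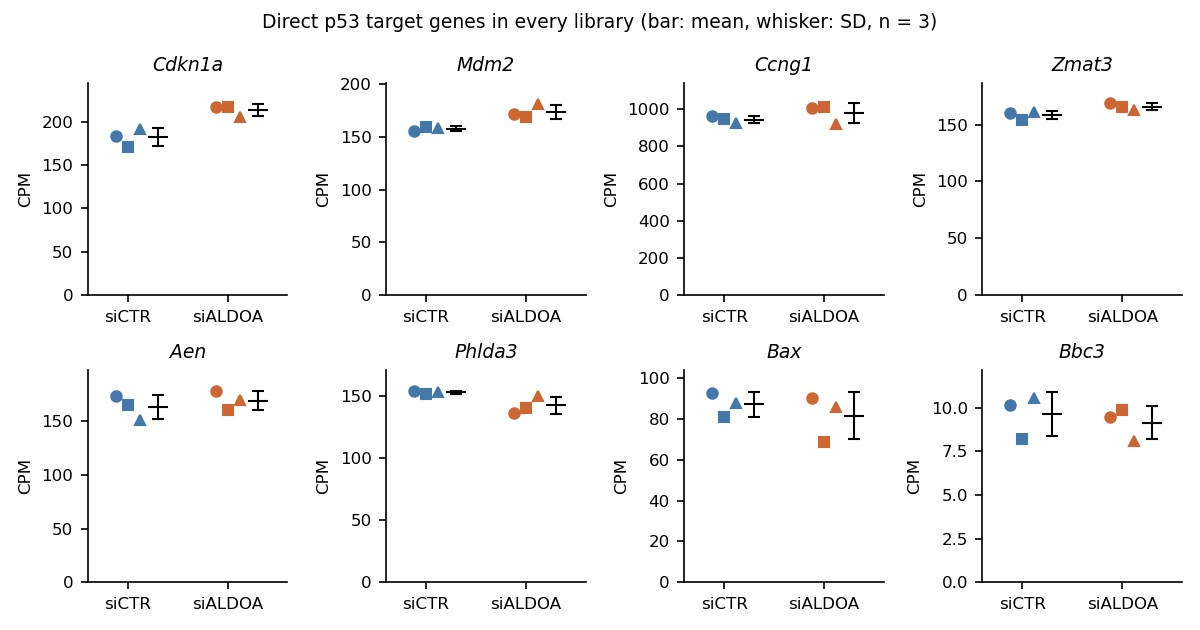
CPM (y axis, from 0) of 8 genes, selected among those known as direct p53 targets, in every library. Circles, squares and triangles stand for replicates 1, 2 and 3, with the mean and the SD beside them (n = 3). Cdkn1a and Mdm2 are higher in all siALDOA libraries, and Ccng1, Aen, Bax and Bbc3 overlap between the groups, while Phlda3 lies lower and Zmat3 higher without passing the test. The p53 targets not drawn include Sesn1 and Eda2r, which rose, and Plk2 and Rps27l, which fell.

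Of the 4 DNA repair genes, 1 rose (Polk; 25%, against 10.4% of all genes) and 3 did not pass the test. Polk, a translesion DNA polymerase, was at 37.8, 36.9 and 29.9 CPM in siCTR and at 42.4, 40.9 and 47.4 CPM in siALDOA (log2 fold change 0.32, SE 0.10, adjusted p = 0.027 in limma). Its groups did not overlap, but the call was lost with each single library left out except siCTR replicate 1, with an adjusted p of up to 0.31. Xpc and Ddb2, which recognise damage for nucleotide excision repair, also lay higher in all siALDOA libraries, at 12.9 to 15.3 against 15.4 to 17.8 CPM and at 5.29 to 6.02 against 6.41 to 7.33 CPM. Their log2 fold changes of 0.22 and 0.28 had limma adjusted p-values of 0.34 and 0.40, from 47 to 66 and 20 to 28 reads per library. Exons of Ddb2 overlap those of Acp2 on the other strand. Rrm2b, the p53-inducible subunit of ribonucleotide reductase, had a log2 fold change of -0.17 (limma adjusted p = 0.38).

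Growth and stress signalling held the gene with the highest fold change. Sesn1 encodes sestrin 1, an inhibitor of the growth kinase complex mTORC1 that is known as a target of both p53 and FOXO factors. It lies on chromosome 10 from 41809935 to 41908424. It was at 34.5, 29.3 and 29.1 CPM in siCTR and at 53.7, 59.3 and 61.3 CPM in siALDOA. The groups were far apart, and the mean rose from 31.0 ± 3.08 to 58.1 ± 3.93 CPM (SD, n = 3), or 188% of the control. Its log2 fold change was 0.89 (SE 0.092, adjusted p = 1.5e-07 in limma), and it stayed past the threshold under all 17 alternatives, as did that of Eda2r.

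Epha2, an ephrin receptor kinase, was at 140, 133 and 125 CPM in siCTR and at 161, 153 and 171 CPM in siALDOA (log2 fold change 0.29, SE 0.057, adjusted p = 6.4e-04 in limma). Rps27l, a p53-inducible relative of ribosomal protein S27 that binds Mdm2, was at 112, 106 and 101 CPM in siCTR and at 89.1, 84.2 and 91.9 CPM in siALDOA. It fell by 0.26 on the log2 scale (SE 0.063, adjusted p = 0.0038 in limma). Its reads are uncertain, because Gm14706, Gm35106 and Gm42834 are 92.6% to 94.5% identical to it over 255 to 257 bases. These copies had 82.6%, 70.5% and 56.8% of their control means, and of the 3 only Gm35106 passed the test (limma adjusted p = 0.0078). Ephx1, an epoxide hydrolase, was at 208 to 210 CPM in siCTR and 218 to 238 CPM in siALDOA, with a log2 fold change of 0.11 and a limma adjusted p of 0.10. Scaled to total reads, it passed the threshold (0.13, adjusted p = 0.0495). Sulf2, an extracellular sulfatase, had 1 to 2 reads per library, which is under the limit of 3 reads, and no fold change is given.

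Levels between genes were compared per kilobase of annotated exons. On this scale the siCTR means ran from 269 CPM per kb for Ccng1 to 0.70 for Ptp4a3, with Sulf2 under the read limit. Rps27l (130), Plk2 (126), Ephx1 (107) and Phlda3 (98.4) followed Ccng1. Cdkn1a was at 51.2 CPM per kb in siCTR and 59.9 in siALDOA, and Bax at 55.2 and 51.7. The genes with the higher fold changes were not the most abundant, as Sesn1 was at 7.78, Btg2 at 5.83 and Ccng2 at 1.83 CPM per kb in siCTR. These values are levels and not differences.

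Of 36 further p53 targets in the table, 7 rose (19.4%, against 10.4% of all genes) and 0 fell (against 10.0%) in limma. At an unadjusted p under 0.05 in limma, 3 of them were lower (against 15.1% of all genes). The quasi-likelihood test of edgeR called 1 lower (against 10.4%) and DESeq2 called 0 (against 6.21%). Among the higher ones were Apaf1, the scaffold of the apoptosome (log2 fold change 0.52), Steap3, a metalloreductase (0.40), and Dyrk3, a kinase (0.40). The adjusted p-values from limma were 9.5e-04, 1.0e-04 and 0.018. Without siCTR replicate 2, 4 of the 36 were called, against 2813 of all 18001 genes. The median over the 36 genes was -0.0011, against -0.0023 over all genes.

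Of 34 genes of damage sensing and p53 regulation, 6 rose (17.6%, against 10.4% of all genes) and 7 fell (20.6%, against 10.0%). Hipk2, a kinase that phosphorylates p53, rose by a log2 fold change of 0.57 (limma adjusted p = 3.5e-07), Chek2, the checkpoint kinase of double-strand breaks, by 0.40 (0.023), and Rchy1, another ubiquitin ligase of p53, by 0.33 (0.0015). Clspn, the adaptor that activates Chk1 at stalled forks, fell by 0.42 (limma adjusted p = 2.6e-04), Rpa2, a subunit of the single-strand binding complex, by 0.42 (0.0022), and Chek1, the kinase of replication stress, by 0.34 (0.0078). Atm, the kinase that signals breaks to p53, was at 41.6 to 52.6 CPM in siCTR and 49.4 to 51.8 CPM in siALDOA (log2 fold change 0.12, limma adjusted p = 0.38).

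The genes that link ribosome assembly to Mdm2 included 23 with a row, of which 1 rose (4.35%, against 10.4% of all genes) and 3 fell (13.0%, against 10.0%). Rpl5 was at 445 to 460 CPM in siCTR and 426 to 446 CPM in siALDOA (log2 fold change -0.05, limma adjusted p = 0.45). Rpl11 was at 92.0 to 96.6 CPM and 81.7 to 94.1 CPM (-0.13, limma adjusted p = 0.18). The nucleolar genes Rrs1, which acts in assembly of the large subunit (-0.28, limma adjusted p = 2.1e-04), Ncl, which encodes nucleolin (-0.27, limma adjusted p = 1.2e-07), and Mybbp1a (-0.11, limma adjusted p = 0.026) fell. Gltscr2, a nucleolar regulator of p53, rose (0.20, limma adjusted p = 0.049). The 4 calls became 2 without siCTR replicate 1, siCTR replicate 3 or siALDOA replicate 2. The binding of ribosomal proteins to Mdm2 is a property of proteins, which mRNA levels do not measure.

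p21 acts on many cell cycle genes through the DREAM repressor complex. Of 20 such genes, 10 fell (50%, against 10.0% of all genes) and 0 rose (against 10.4%), and the median log2 fold change was -0.19. Among those that fell were Mcm5, a subunit of the replicative helicase (-0.59, limma adjusted p = 5.5e-09), and Mybl2, a transcription factor of the late cell cycle (-0.48, limma adjusted p = 4.6e-04). The other 10 did not pass the test, with log2 fold changes from -0.27 for Cdc25c to 0.04 for Plk1. Ccnb1 (-0.03) and Foxm1 (0.0053) lay between these. At an unadjusted p under 0.05 in limma, in edgeR and in DESeq2, 0 were higher, against 2787, 1920 and 1066 of all 18001 genes. Without siCTR replicate 1 or 3, 6 of the 20 were called, against 2809 and 2738 of all 18001 genes. Whether Cdkn1a had a part in this was not tested.

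FOXO factors, which are inactivated by growth factor signalling, share targets with p53. Of 15 FOXO targets outside the p53 list, 6 rose (40%, against 10.4% of all genes) and 1 fell (6.67%, against 10.0%). Their median log2 fold change was 0.27. The highest were Bcl6, a transcriptional repressor (0.79, limma adjusted p = 3.0e-04), Fbxo32, an atrophy-related ubiquitin ligase (0.76, limma adjusted p = 0.040), and Pink1, a mitochondrial kinase (0.63, limma adjusted p = 0.039). Fbxo32 had only 7 to 20 reads per library, and DESeq2 gave it no adjusted p. Pink1 had 17 to 40 reads and an adjusted p of 0.14 in DESeq2. Bcl2l11, which encodes the BH3-only death protein Bim, rose too (0.60, limma adjusted p = 0.011) and is named after its values were seen. Sod2, a mitochondrial superoxide dismutase, fell by 0.23 (limma adjusted p = 0.021). DESeq2 called 2 of them higher and 0 lower, against 1066 and 1117 of all 18001 genes. In limma the 7 calls became 2 without siALDOA replicate 1 or 3, and 4 when siCTR replicate 1, 2 or 3 was left out. The letters GTAAACA of the FOXO motif, searched on both strands after the values were seen, stood in the promoters of Sesn1, Mdm2, Eda2r and Bbc3, 4 of the 29 genes (13.8%, against 4.05% of all genes). In Sesn1 they lay in the promoter of another start (41810324 to 41810623) than its p53 element. Among the 8 higher genes with a promoter 3 held these letters, among the 4 lower genes 0 did, and among the 16 genes not past the threshold 1 did. These shares were not compared by a test.

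**Figure D4:**
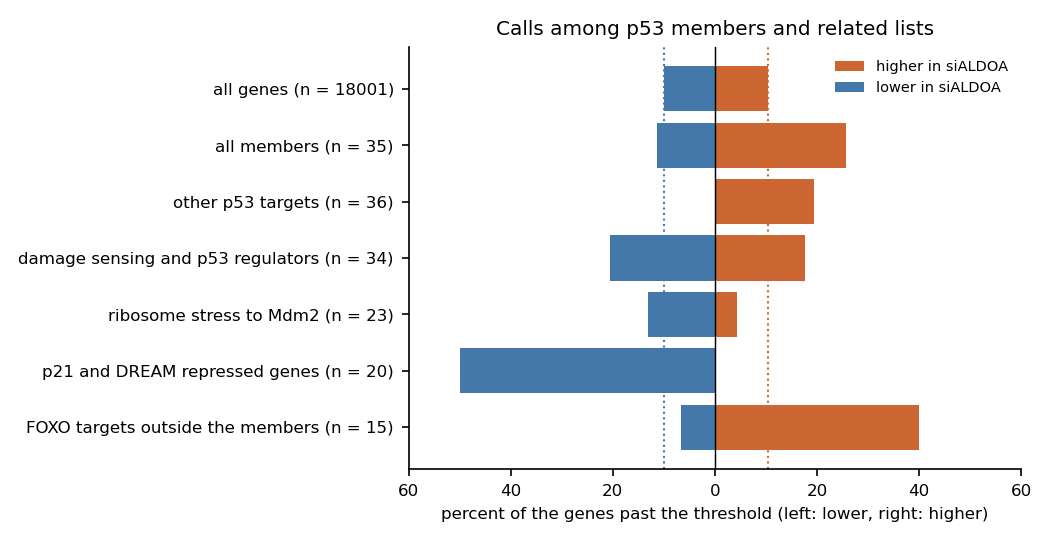
Percent of the genes of each list past the threshold (x axis), to the right when higher and to the left when lower in siALDOA, with dotted lines at the share over all 18001 genes. The p53 genes reach 25.7% higher and 11.4% lower, DREAM genes 50% lower, and FOXO targets 40% higher.

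The firmness of the 13 calls differed. With each single library left out in turn, 9 kept the call, namely Sesn1, Ccng2, Eda2r, Trp53inp1, Epha2, Cdkn1a, Gadd45g, Plk2 and Rps27l. The other 4, Mdm2, Trp53, Btg2 and Polk, lost it without at least 1 library. Without both libraries of replicate 1, 2 or 3, the count of higher genes was 5, 2 and 4, against 4.11%, 3.79% and 2.74% of all genes in these fits. The count of lower genes was 2, 2 and 1, against 3.84%, 3.54% and 2.89%. Sesn1 and Eda2r were the 2 that remained past the threshold throughout.

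**Figure D5:**
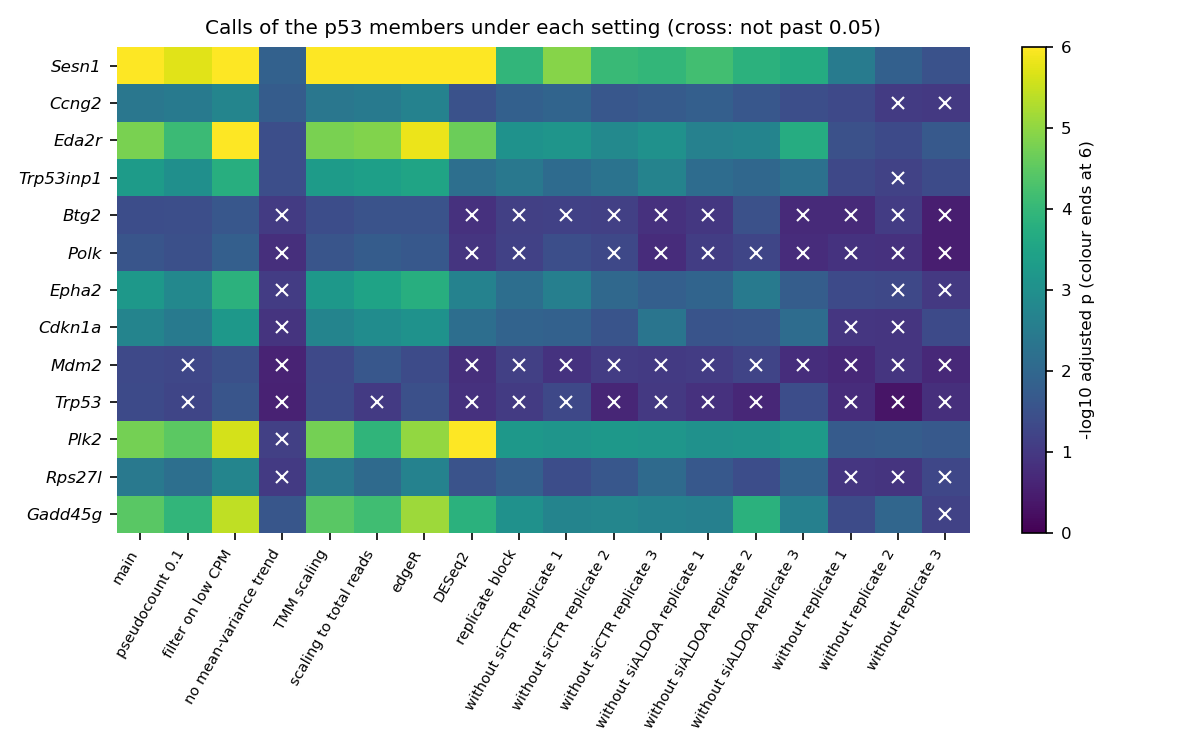
Adjusted p-value (colour, as -log10, with the scale ending at 6) of the 13 called p53 genes (rows) in the reported fit and under 17 alternatives (columns), where a cross marks an adjusted p not under 0.05. Sesn1 and Eda2r have no cross, and crosses gather in Btg2, Polk, Mdm2 and Trp53.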

How the data were processed

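RNA-sequencing libraries of NIH/3T3 cells treated with siALDOA or siCTR for 48 h were analysed, 3 per group. The authors aligned poly(A) reads to mm10 with Bowtie2 (version 2.2.7), drew equal numbers per sample, counted reads in genes and deposited CPM relative to a scaled library size. Their table of edgeR fold changes and p-values was not used. The methods state a minimum of 12 reads summed over samples, and 1834 genes of the deposited table were under it.

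Dividing the CPM by the value of 1 read gave whole reads for 100% of the values (tolerance 1e-06). Totals were 3692341 to 3771129 reads. Reads carry no molecular identifiers, so depth covers counting error only.

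The comparison used limma (version 3.58.1, R version 4.3.3) with a trend of the variance on the mean, fitted to log2(CPM + 1) and tested two-sided, adjusted over 18001 genes by Benjamini-Hochberg. On this scale, fold changes of genes at low CPM come out too small. edgeR (version 4.0.16) and DESeq2 (version 1.42.0) on the recovered reads, other scalings, another pseudocount (0.1), a filter on low CPM, no trend, the replicate block and libraries left out were alternatives.

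The members and the lists were chosen with earlier results of these data known. Each member was accounted for. Library values were given for Trp53, Mdm2, Cdkn1a, Bax and called members. From other lists the 3 highest and 3 lowest called genes and Cdkn2a, Rpl5, Rpl11, Atm and Chek1 were named, except 1 gene that is not reported here. Ccng1, Gadd45a, the copies of Rps27l and the DREAM genes Cdc25c, Plk1, Ccnb1 and Foxm1 were given values after these were seen. Positions and overlaps came from GENCODE M21 (GRCm38, the build of mm10), in which 17932 of 18001 identifiers were found. Copies were searched with blastn (version 2.17.0, at least 90% identity over 200 bases) and promoters taken from RefSeq.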

Additional observations from a re-analysis of the deposited data

How the results depend on the processing

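The scaling to total reads and the fits without both libraries of a replicate number were chosen after seeing the data. The TMM scaling gave the deposited values again. Over all genes 3676 were called, and 1440 in limma without the trend of the variance on the mean, 2183 in DESeq2 and 1014 to 2813 with libraries left out. Of the p53 genes, 9 were higher and 4 lower, against 4 and 1 without a trend, and 2 to 7 and 1 to 5 with libraries left out. In the other lists, the counts without the trend and in DESeq2 were 1 and 4 for further p53 targets (7 in the main comparison), 3 and 8 for damage sensing (13), 4 and 6 for DREAM genes (10) and 2 and 2 for FOXO targets (7). The genes that link ribosome assembly to Mdm2 gave 0 without a trend (4). With libraries left out these counts were 0 to 6, 2 to 12, 2 to 8, 1 to 5 and 1 to 4. The cause was not tested. Directions turned only with libraries left out, where the log2 fold change ran from -0.42 to 0.32 for Ptp4a3, -0.0021 to 0.034 for Ckap2, -0.18 to 0.019 for Bax, -0.22 to 0.075 for Bbc3, -0.0044 to 0.10 for Aen and -0.24 to 0.32 for Fas. Deviations from the group means correlated between libraries of the same number by 0.0797, 0.0781 and 0.279 across 6845 genes. Between replicate 3 of a group and replicates 1 and 2 of the other group, the correlation was -0.211 to -0.115. Replicate 3 thus had deviations in common between the groups, and their source was not tested. Replicates 1 and 2 correlated across numbers by 0.0623 and 0.155. The main fit did not take the numbers as pairs. With the replicate block 6 p53 genes were higher and 3 lower, against 1611 and 1559 of all 18001 genes, and the calls of Trp53, Mdm2, Btg2 and Polk were lost. The standard error of the log2 fold change was 0.26 for Fas and 0.25 for Ptp4a3, above the change of 0.23 in Cdkn1a.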
